A study of Mus musculus with 5 samples.

Results

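The 10 genes described here make, break down, bind and sense retinoic acid in the lower jaw of mouse embryos that lack Yap and Taz in the neural crest. They were taken by gene symbol from the 23441 gene rows of the deposited count table, and all 10 were found. For the 9 genes with enough reads to be tested, no difference in level between dCKO and control tissue passed the main test. Under other processing, Rara passed in 2 of 14 alternatives. The 95% intervals are not adjusted, reflect the spread among these libraries under the main processing, and do not bound the effect of genotype. The series holds 5 poly(A) RNA libraries of mandibular tissue, all of embryonic day 10.5. The 2 dCKO libraries had the genotype Wnt1Cre; Yapf/f, Tazf/f and a background of C57BL/6J x CBA/J; 129SvEv. The 3 control libraries had the genotype Yapf/f, Tazf/f and the background 129SvEv, so both groups carried the floxed alleles, and genotype and strain background cannot be told apart. Wnt1Cre is active in the premigratory neural crest, and the epithelium, the arch core mesoderm, the endothelium and the blood of these embryos descend from other cells. The labels do not say whether each library came from a separate embryo, and the p-values reflect the spread among these libraries, which may be technical.

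Retinoic acid is made from vitamin A in successive oxidation steps, the last one carried out by the aldehyde dehydrogenases of the Aldh1a family. It is removed by the cytochrome P450 enzymes of the Cyp26 family, carried in the cytoplasm by the Crabp proteins, and acts through nuclear receptors, the RARs, which bind DNA as pairs with RXR proteins. In the early head the pharyngeal arches lie between tissues that make retinoic acid and tissues that remove it, and both excess and lack of it disturb the neural crest and the face.

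The promoters of Rarb and Cyp26a1 are shown because they hold the DNA element through which the receptors act, and both genes are known direct targets of the receptors. RefSeq promoter windows of build GRCm38.p6, which run from 250 bases before to 50 bases after a transcription start, were available for 8 of the 10 genes in 12 windows. The element searched was a pair of hexamers in the same orientation and 5 bases apart, on either strand, each spelled AGGTCA with the first base also allowed to be G and the third also T. The capitals mark the element.
Rarb, chr14:16575427-16575726, minus strand: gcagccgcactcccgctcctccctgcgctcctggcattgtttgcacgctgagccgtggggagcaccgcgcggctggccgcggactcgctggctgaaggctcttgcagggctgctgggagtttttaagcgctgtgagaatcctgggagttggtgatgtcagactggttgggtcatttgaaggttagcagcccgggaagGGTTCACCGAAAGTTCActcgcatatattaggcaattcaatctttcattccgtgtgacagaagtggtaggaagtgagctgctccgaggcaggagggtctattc
Cyp26a1, chr19:37697558-37697857, plus strand: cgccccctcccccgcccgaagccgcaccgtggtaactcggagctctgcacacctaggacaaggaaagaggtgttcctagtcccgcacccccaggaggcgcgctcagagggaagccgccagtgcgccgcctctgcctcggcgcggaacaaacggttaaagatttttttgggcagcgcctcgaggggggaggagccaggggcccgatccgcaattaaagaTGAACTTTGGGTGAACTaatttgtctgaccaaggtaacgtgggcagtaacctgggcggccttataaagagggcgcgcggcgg

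In Rarb the match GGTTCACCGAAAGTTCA ran from base -53 to base -37 before the start. In Cyp26a1 the match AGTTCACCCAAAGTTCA lay on the opposite strand, from -32 to -16. Of all 32851 windows in the table, 32 held such a pair, or 0.0974%. Pairs 2 bases apart were searched in the same way, with matches in 0 of the windows of the 8 genes and in 0.268% of all windows. TEAD factors, the DNA-binding partners of YAP and TAZ, recognise the hexamer GGAATG, which was present in the windows of Rarb and Crabp1 and in 14.7% of all windows. These matches describe the sequence and do not show binding.

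Library depth was 11346480 and 13298973 counts in dCKO and 6491137 to 7439419 counts in control tissue. Yap1 fell to 0.398-fold and Wwtr1, the gene of Taz, to 0.404-fold of control (edgeR adjusted p = 1.31e-05 and 1.56e-04). All 15 markers of mandibular arch mesenchyme were detected in both groups, and their summed level was 2350 and 2492 CPM (library-size-scaled read counts) in dCKO against 2569 to 2725 CPM in control libraries. The sum hides changes in both directions. Of the 15, edgeR called 1 higher in dCKO (Alx4) and 4 lower (Dlx5, Dlx6, Prrx1 and Gsc), while 6.42% of all tested genes were called. The libraries also differed in their make-up: the erythroid list summed to 79877 and 55642 CPM in dCKO against 3412 to 4420 CPM in control libraries, with 11 of its 13 genes detected in both groups and Hba-a1 and Hba-a2 at 0 counts. The epithelial list summed to 830 and 807 CPM in dCKO against 570 to 677 CPM in control libraries, with all 17 of its genes detected. In such tissue RNA, fewer cells of a type and less RNA per cell cannot be told apart. Levels below are CPM after TMM scaling of the library sizes, and fold changes are dCKO over control from edgeR's quasi-likelihood test, with Benjamini-Hochberg adjustment over all 12710 tested genes.

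**Figure D1:**
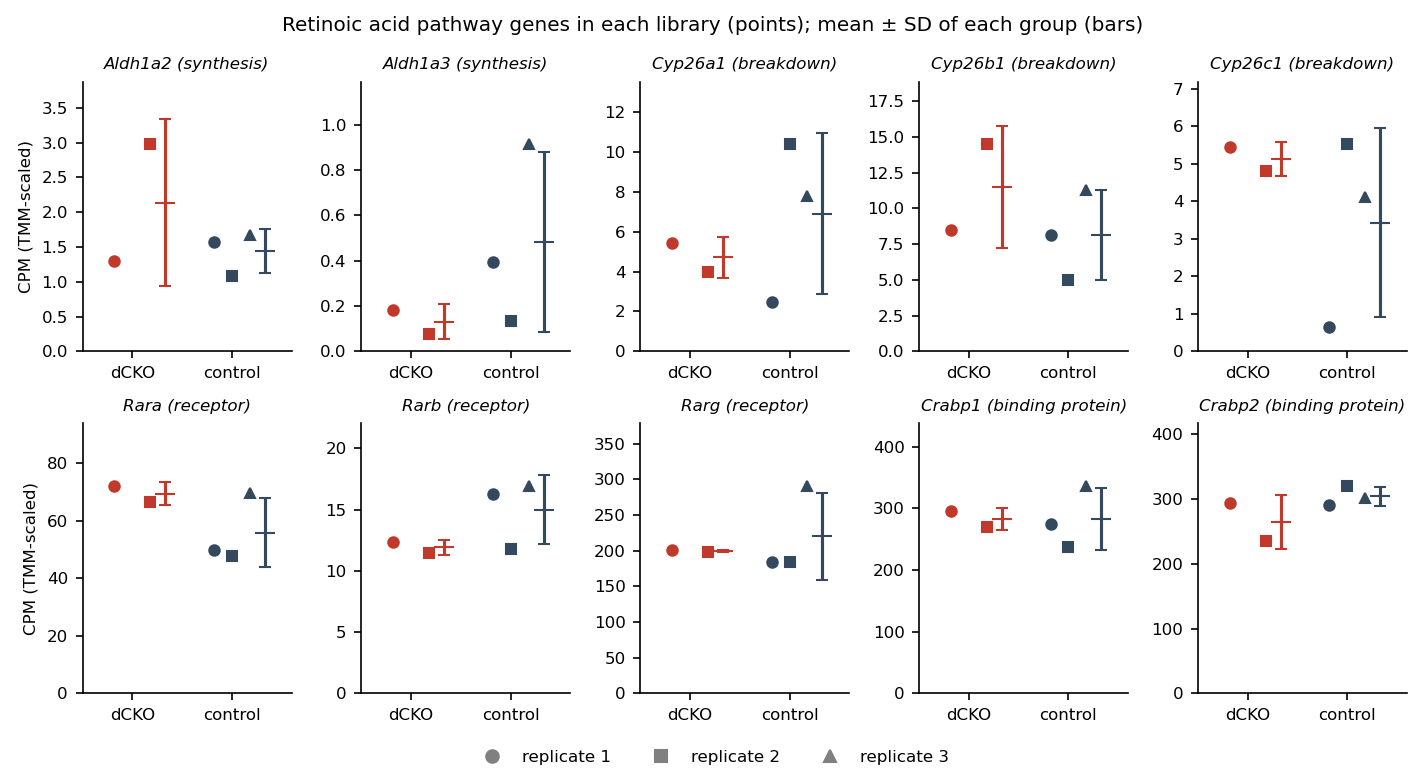
The level of each of the 10 genes in CPM (vertical axes, linear and from 0) in every dCKO and control library, with a marker shape for each replicate number and the mean ± SD of each group beside the points (n = 2 dCKO, n = 3 control). The dCKO and control points overlap for all 10 genes.

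The groups overlapped in 10 of the 10 genes, whereas they did not overlap for 37.6% of all tested genes. Of the 9 tested genes, edgeR called 0, against 6.42% of all tested genes, and 0 had an unadjusted p below 0.05, against 21.5%. DESeq2 and limma-voom also called 0 of them. The median log2 fold change of the 9 was 0.0017, and that of all tested genes was -0.00062. Set per kilobase of transcript, the levels ran from Crabp1 with a mean over the 5 libraries of 352.7 CPM per kilobase down to Aldh1a3 with 0.0991. Crabp1 (295 to 420 CPM per kilobase over all libraries) and Crabp2 (253 to 344) were first and overlapped each other. Rarg (62.5 to 98.6) and then Rara (14.1 to 21.3) followed, with no overlap between them or with their neighbours. Rarb (3.69 to 5.45 CPM per kilobase) overlapped Cyp26a1 (1.39 to 5.81), which in turn overlapped Cyp26c1 (0.376 to 3.17) and Cyp26b1 (1.11 to 3.23). The range of Aldh1a2 (0.477 to 1.32) met those of Cyp26b1 and Cyp26c1 but not that of Aldh1a3 (0.0222 to 0.266). Crabp1, Crabp2, Rarg and Rara were thus above every enzyme in every library, whereas Rarb was not. These levels use the longest transcript of each gene. With the median transcript length the order of the means was the same, but some neighbours changed. Rarg was then at 197.7 to 311.7 CPM per kilobase and overlapped both Crabp genes. Rarb (6.62 to 9.78) no longer overlapped Cyp26a1, and Aldh1a3 (0.0597 to 0.715) overlapped Aldh1a2.

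The enzymes that make retinoic acid were barely detected. Aldh1a2, the main retinoic acid synthase of the trunk mesoderm in early mouse embryos, had 14 and 39 counts in dCKO libraries and 12, 8 and 11 counts in control libraries. That corresponds to 1.29 and 2.98 CPM in dCKO against 1.57, 1.08 and 1.68 CPM in control tissue. The first dCKO library lay within the control range and the second above it. On average the dCKO level was 1.501 times that of the controls (95% interval 0.717 to 3.14, edgeR adjusted p = 0.535). Without dCKO replicate 2 the log2 fold change was -0.15 in place of 0.59. Aldh1a2 is also made by the epicardium, whose marker Upk3b had 3 and 0 counts in dCKO and 10, 0 and 0 counts in control libraries. Tbx5, from the list of cardiac and epicardial genes, was likewise highest in control replicate 1. It had 2 and 1 counts in dCKO and 12, 0 and 0 counts in control libraries. Wt1, Tbx18 and Tcf21 did not follow Upk3b. Wt1 had 5 and 3 counts in dCKO against 0, 3 and 0 in control libraries, and Tbx18 had 7 and 5 against 3, 4 and 3. Tcf21, which arch core mesoderm also expresses, measured 8.31 and 9.33 CPM in dCKO against 4.99, 3.78 and 5.49 CPM in control libraries. The list of cardiac and epicardial genes, with all 11 detected in both groups, summed to 87.0 and 97.4 CPM in dCKO against 108, 99.7 and 16.3 CPM in control libraries, and includes Hand1, which arch mesenchyme also expresses. The part of such neighbouring tissue in the Aldh1a2 counts was not tested. Aldh1a3, the synthase of the nasal region and the ventral eye, had 2 and 1 counts in dCKO and 3, 1 and 6 counts in control libraries, and did not pass the filter on low counts. The ratio of its summed counts was 0.271 (exact 95% interval 0.0479 to 1.05, covering counting error only), so that a difference was not detectable at this depth.

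Of the Cyp26 enzymes, which oxidise retinoic acid to inactive products, Cyp26a1 and Cyp26c1 varied more among the controls than between the groups. Cyp26a1 measured 5.45 and 3.98 CPM in dCKO libraries against 2.49, 10.4 and 7.78 CPM in control libraries. Both dCKO values lay between that of control replicate 1 and those of the other controls. The resulting fold change was 0.684 (95% interval 0.375 to 1.247, edgeR adjusted p = 0.470). Cyp26c1, which removes retinoic acid in the early hindbrain and anterior head, measured 5.45 and 4.82 CPM in dCKO against 0.656, 5.54 and 4.12 CPM in control libraries. Control replicate 1 stood far below the other libraries for this gene, with 5 counts. Its exact 95% counting interval of 0.213 to 1.53 CPM did not reach those of control replicate 2 (3.97 to 7.51 CPM) or control replicate 3 (2.71 to 5.99 CPM). The fold change of Cyp26c1 was 1.499 (95% interval 0.746 to 3.01, edgeR adjusted p = 0.512). It rested in part on that library, since the log2 fold change was 0.58 with all libraries and 0.08 without control replicate 1. Cyp26a1 had its lowest value in the same library, and its log2 fold change of -0.55 was -0.95 without it. Cyp26c1 and Cyp26a1 are neighbours on chromosome 19, with starts 12.1 kilobases apart in GRCm38.p6.

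Cyp26b1, the Cyp26 enzyme of later craniofacial and limb mesenchyme, measured 8.49 and 14.5 CPM in dCKO against 8.14, 4.998 and 11.3 CPM in control libraries. Replicate 2 of dCKO was above every control library and replicate 1 was within the control range. Cyp26b1 had a fold change of 1.43 (95% interval 0.920 to 2.22, edgeR adjusted p = 0.339). The higher of the dCKO values, replicate 2, came from the library with the higher endothelial and myeloid lists. All 12 endothelial and 9 myeloid genes were detected in both groups. The endothelial sums were 353 and 410 CPM in dCKO replicates 1 and 2 against 320 to 355 CPM in control libraries. The myeloid sums were 22.8 and 39.8 CPM in dCKO against 12.9 to 17.4 CPM in control libraries. Among the controls, replicate 3 had the highest Cyp26b1 level, the lowest endothelial sum (320 CPM) and the highest myeloid sum (17.4 CPM). The mesenchyme list was also higher in dCKO replicate 2 than in replicate 1, and the erythroid and epithelial lists were lower. The part of any of these cells in the Cyp26b1 values was not tested. Added up per kilobase, the 3 Cyp26 genes gave 8.05 and 8.21 in dCKO against 3.58, 10.1 and 9.21 CPM per kilobase in control libraries. The sum was thus nearly equal in the dCKO libraries and inside the control range.

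Among the receptors, Rara was the member closest to the threshold. Rara, the most broadly expressed of the RARs, measured 72.1 and 66.4 CPM in dCKO libraries against 49.9, 47.8 and 69.6 CPM in control libraries. The dCKO values were above control replicates 1 and 2, and control replicate 3 lay between them. Rara had a fold change of 1.24 (95% interval 0.998 to 1.55, unadjusted p = 0.0515 and adjusted p = 0.235, edgeR). Without control replicate 3 Rara was called higher (log2 fold change 0.50, SE 0.12, edgeR adjusted p = 0.0202). After correction of each library for its GC content bias, the log2 fold change was 0.10 (SE 0.12, edgeR adjusted p = 0.735). Whether Rara passed the test thus depended on control replicate 3, and the size of its difference on the treatment of GC content.

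Rarg, a receptor known from craniofacial mesenchyme and cartilage precursors, measured 200.6 and 198.5 CPM in dCKO libraries against 184.6, 184.7 and 291.1 CPM in control libraries. Control replicate 3 was the highest of the 5. The fold change was 0.907 (95% interval 0.716 to 1.15, edgeR adjusted p = 0.664), and the log2 fold change of -0.14 was 0.10 without control replicate 3. Rarb, whose promoter carries the element shown above and which retinoic acid induces, measured 12.4 and 11.5 CPM in dCKO against 16.3, 11.8 and 16.9 CPM in control libraries. Control replicate 2 lay between the dCKO values and the other controls lay above them. The fold change was 0.796 (95% interval 0.581 to 1.09, edgeR adjusted p = 0.401). Both genes whose windows hold the element, Rarb and Cyp26a1, thus had fold changes below 1 with intervals that include 1.

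**Figure D2:**
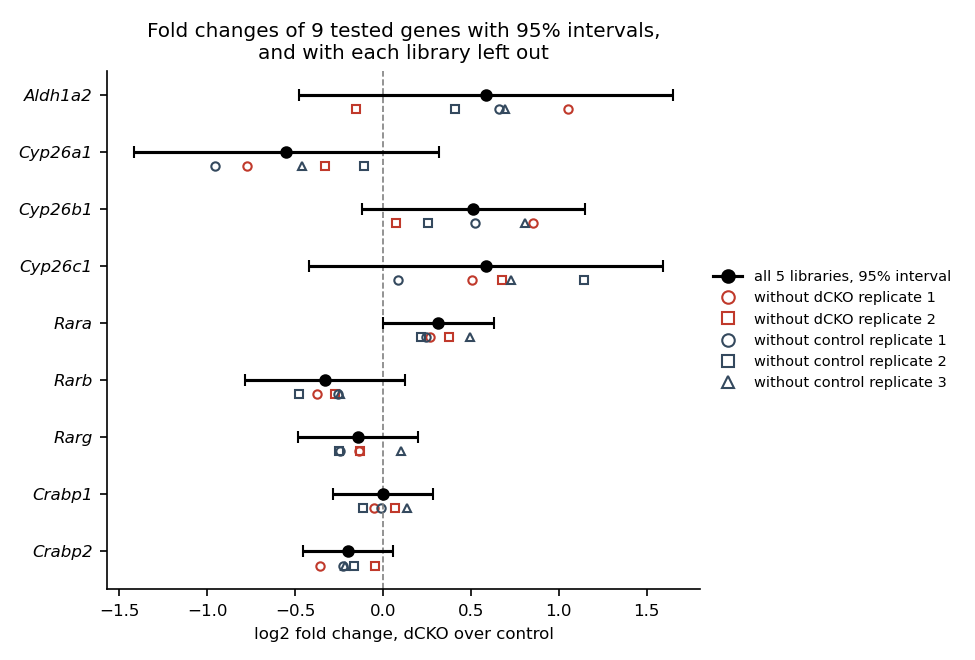
The log2 fold change of dCKO over control (horizontal axis) for the 9 tested genes, with its 95% interval (black), and the same value with each library left out in turn (open symbols, red for dCKO and blue for control libraries). All 9 intervals include 0, and they are narrowest for Crabp2 (-0.46 to 0.06) and Crabp1 (-0.28 to 0.28) and widest for Aldh1a2 (-0.48 to 1.65).

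In the receptor and Cyp26 families, the shares of 5 genes did not overlap between the groups, although the levels of these genes did. For comparison, the levels of 37.6% of all tested genes did not overlap, and no such figure was computed for shares. Of the 10 shares computed, 0 passed the exact test used. That was fixed in advance, because 2 against 3 libraries cannot give a p below 0.1. Per kilobase, Rara took 22.9% and 21.7% of the RAR sum in dCKO libraries against 17.9%, 17.6% and 16.5% in control libraries. Rarg took 72.9% and 74.2% in dCKO against 75.8%, 77.7% and 79.1% in control libraries. Both dCKO values of Rara were above, and both of Rarg below, those of every control library. The level of Rarg over that of Rara was 3.19 and 3.42 in dCKO against 4.24, 4.43 and 4.79 in control libraries. An exact two-sided permutation test of the Rara share gave p = 0.1, the smallest that 2 against 3 libraries allow, and 0.429 after Benjamini-Hochberg adjustment over the 10 shares of the 4 families. For Rarg the exact permutation p was 0.2 (adjusted 0.429). The share of Rarb was 4.27% and 4.08% in dCKO, also below the 6.35%, 4.70% and 4.37% in control libraries (exact permutation p = 0.3, adjusted 0.429). Among the breakdown enzymes, Cyp26a1 took 37.8% and 27.0% in dCKO, below the 38.9%, 57.6% and 47.2% in control libraries (exact permutation p = 0.2, adjusted 0.429). Cyp26c1 took 38.7% and 33.6% in dCKO, above the 10.5%, 31.4% and 25.6% in control libraries (exact permutation p = 0.2, adjusted 0.429). The shares of Cyp26b1 and of the synthesis and binding protein genes overlapped between the groups. Shares of 1 family add up to a fixed total, so they do not vary independently. With the median transcript length, an alternative chosen after seeing the data, Rara took 9.41% and 8.83% in dCKO against 7.15%, 6.95% and 6.47% in control libraries. The level of Rarg over that of Rara was then 9.32 and 10.01 in dCKO against 12.4, 12.9 and 14.02 in control libraries. The shares of Rara, Rarg, Cyp26a1 and Cyp26c1 still did not overlap between the groups with that length, and those of Rarb did. These shares were chosen with the levels known, and the lengths, those of the longest transcripts unless stated, come from another annotation than the counts.

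**Figure D3:**
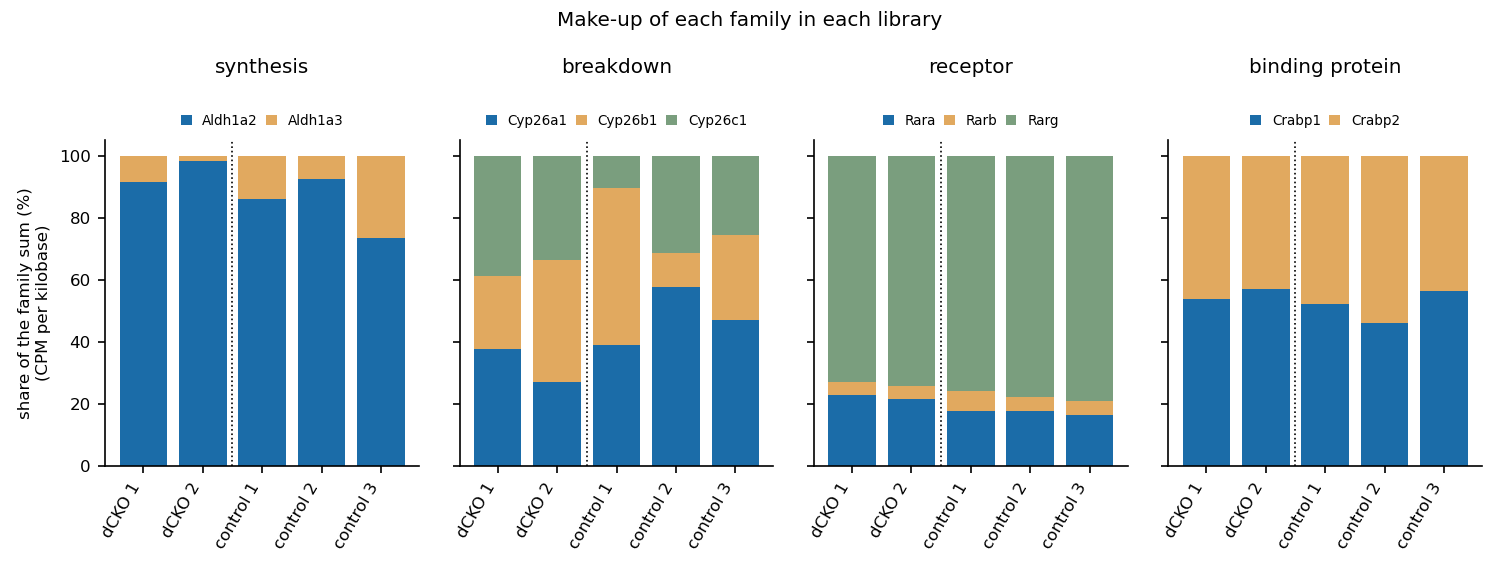
The share of each gene in the per-kilobase sum of its family (vertical axis, percent) in each dCKO library (left of the dotted line) and control library (right of it), as stacked bars for the synthesis, breakdown, receptor and binding protein families. The Rara part of the receptor bars is 22.9% and 21.7% in dCKO and 16.5% to 17.9% in control libraries, while the Cyp26 bars vary most among the controls.

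The cytoplasmic binding proteins were the most abundant and the most precisely measured of the 10. Crabp1, which holds retinoic acid in the cytoplasm and is a known marker of cranial neural crest mesenchyme, measured 295.5 and 270.4 CPM in dCKO libraries against 274.8, 236.9 and 336.6 CPM in control libraries. Both dCKO values were inside the control range. For Crabp1 the fold change was 1.001 (95% interval 0.823 to 1.22, edgeR adjusted p = 0.996). Crabp2, which carries retinoic acid to the nuclear receptors, measured 294.0 and 235.4 CPM in dCKO against 290.8, 320.2 and 301.2 CPM in control libraries. Replicate 2 of dCKO was below every control and replicate 1 was within their range. For Crabp2 the fold change was 0.870 (95% interval 0.729 to 1.04, edgeR adjusted p = 0.358). Crabp1 made up 53.9% and 57.1% of the pair's per-kilobase sum in dCKO libraries against 52.3%, 46.2% and 56.5% in control libraries. In the authors' deposited table, the fold changes of Crabp1 and Crabp2 were 1.02 and 0.887, and the smallest adjusted p-value of the 10 genes was 0.675, for Rara.

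Other genes of vitamin A uptake, transport and oxidation gave 1 call. Of a list of 30 such genes, 27 were in the table and 13 passed the filter, and 1 of the 13 rose and 0 fell. Of all 12710 tested genes 636 rose and 180 fell, or 6.42% in either direction. Those numbers were lowest without dCKO replicate 1 (403 and 39) and highest without control replicate 3 (950 and 687), and the lower genes numbered 79, 63 and 97 without dCKO replicate 2, control replicate 1 and control replicate 2. The higher genes numbered 404 and 422 without dCKO replicate 2 and control replicate 1. The median log2 fold change of the 13 was 0.07. The gene that rose was Dhrs3, which encodes a retinaldehyde reductase that turns the precursor of retinoic acid back to retinol and which retinoic acid induces. Dhrs3 measured 11.6 and 13.2 CPM in dCKO libraries against 4.59, 5.40 and 5.34 CPM in control libraries, and the groups were well apart. Its log2 fold change was 1.28 (SE 0.25, edgeR adjusted p = 0.00230). Without dCKO replicate 2 it was 1.19 and not called (edgeR adjusted p = 0.0583). Dhrs3 was higher in the libraries in which the erythroid list was also higher, and the part of blood cells in its level was not tested. Rdh10, the retinol dehydrogenase of the preceding step, measured 11.5 and 11.5 CPM in dCKO against 10.8, 9.73 and 9.61 CPM in control libraries and did not pass the test (log2 fold change 0.20, SE 0.22, edgeR adjusted p = 0.642). Stra6, the membrane receptor for retinol uptake, measured 18.7 and 17.6 CPM in dCKO against 16.1, 16.8 and 21.4 CPM in control libraries. Stra6 did not pass the test either. Rdh10 and Stra6 were named after their values were seen.

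Of 22 receptor partners and coregulators, 21 were tested. Of these, edgeR, DESeq2 and limma-voom called 0 and 2 had an unadjusted p below 0.05, against 21.5% of all tested genes. Those were Ncoa1, a coactivator of nuclear receptors, and Rxrb, one of the RXR partners of the RARs. Ncoa1 measured 16.1 and 15.2 CPM in dCKO libraries against 8.53, 12.0 and 12.2 CPM in control libraries (log2 fold change 0.52, SE 0.22, edgeR adjusted p = 0.169). Rxrb measured 108.5 and 88.9 CPM in dCKO against 68.4, 83.6 and 86.4 CPM in control libraries (log2 fold change 0.31, SE 0.13, edgeR adjusted p = 0.173). With the next genes by p, Tbl1x and Ppard, the log2 fold changes were -0.26 and 0.29. The median of the 21 was -0.03 on the log2 scale.

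The genes known to respond to retinoic acid were listed whatever the direction of their response. Their counts and median therefore do not measure a shared response. Of 34 besides the 10 genes above, 20 were tested, with a median log2 fold change of 0.12. Of these 20, 4 rose and 0 fell, while 6.42% of all tested genes were called in either direction. The 4 that rose were Tgm2, Btg2, Dhrs3 and Hoxa2. Without control replicate 3 there were 7 higher genes, and without control replicate 2 there were 2 lower ones, Gbx2 and Nr2f2, named after their values were seen. Tgm2, a transglutaminase that retinoic acid induces in many cells, measured 91.9 and 73.6 CPM in dCKO libraries against 11.4, 11.5 and 10.7 CPM in control libraries. Its log2 fold change was 2.88 (SE 0.16, edgeR adjusted p = 9.30e-11). Btg2, an antiproliferative gene, measured 18.2 and 19.3 CPM in dCKO against 5.51, 4.19 and 6.41 CPM in control libraries (log2 fold change 1.81, SE 0.23, edgeR adjusted p = 2.47e-05). Tgm2 and Btg2 stood higher in every dCKO library than in any control, as did the erythroid list, whose part in their levels was not tested. Hoxa2, a homeobox gene of the second arch and hindbrain that is silent in first arch crest, had 44 and 41 counts in dCKO libraries and 1, 0 and 0 counts in control libraries. The ratio of its summed counts was 76.7 (exact 95% interval 13.4 to 3064, covering counting error only), with an edgeR adjusted p of 5.86e-05. The list of genes of the second and posterior arches, to which Hoxa2 belongs, summed to 8.77 and 7.42 CPM in dCKO against 3.28, 4.32 and 1.37 CPM in control libraries. Hoxa2 itself made up much of the dCKO sums. Without it, a sum chosen after seeing the data, the other 8 genes gave 4.71 and 4.28 CPM in dCKO against 3.15, 4.32 and 1.37 CPM in control libraries, and the groups overlapped. All 9 genes of the list were detected in dCKO and 7 in control libraries, Hoxa3 and Hoxd4 being at 0 counts in the controls. A list of neural, ganglion and glia genes summed to 145.27 and 139.53 CPM in dCKO against 101.96, 113.48 and 122.97 CPM in control libraries. Of its 7 tested genes, edgeR called 1 higher and 0 lower. That gene, Sox10, named after its values were seen, had 59 and 22 counts in dCKO libraries and 0 in every control library. The parts of second arch and of neural tissue in the Hoxa2 counts and in these sums were not tested. Rarb and Cyp26a1, the genes shown above with a receptor element, had fold changes in the opposite direction that did not pass the test.

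**Figure D4:**
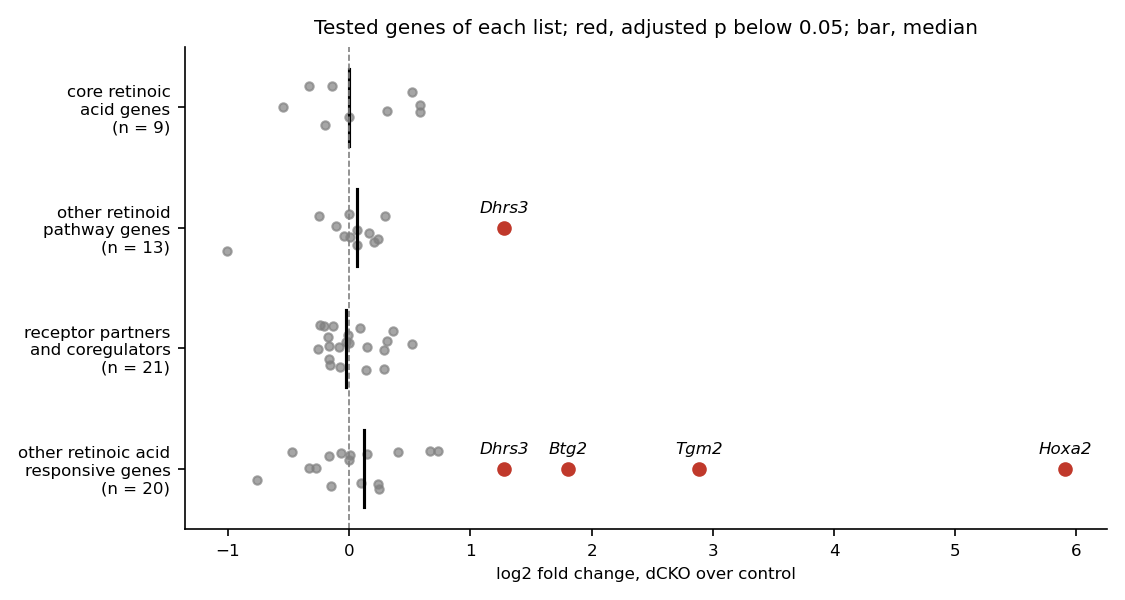
The log2 fold change of dCKO over control (horizontal axis) of each tested gene, in rows for the 9 tested core genes, 13 other retinoid pathway genes, 21 receptor partners and coregulators and 20 other genes responsive to retinoic acid, with genes of adjusted p below 0.05 in red and the median of each row as a bar. The 4 named genes lie at 1.28 or above, Dhrs3 appears in both lists that hold it, and the core genes lie between -0.55 and 0.59.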

How the data were processed

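Poly(A) RNA of mandibular tissue was sequenced from 2 dCKO and 3 control samples, grouped by title. The authors deposited raw read counts per gene symbol. The submitters' processing notes name the mm9 build, DESeq 1.16.0 and HTSeq 0.5.4p3. For the aligner, annotation and strand setting nothing is given in the sources used here. The authors also deposited a table of mean normalized counts (a signal per gene), fold changes as a ratio and as log2 values, and p-values. Its row for reads in no gene holds 41.9% of the mean normalized counts and was not used. The count columns headed WT were taken as the controls, matched on the replicate number.

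Genes were filtered with filterByExpr (minimum count 10, minimum total 15), scaled with TMM and tested with edgeR 4.0.16 (glmQLFit, glmQLFTest, two-sided, R 4.3.3), which was tested on simulated data. The adjusted p threshold was 0.05. Standard errors were computed from the log2 fold change and F, and 95% intervals use the test's degrees of freedom and are not adjusted. Lengths and GC content came from GENCODE M21 transcripts (found for 94.8% of tested genes by symbol), and promoters from RefSeq. Poisson intervals cover counting error only. Alternatives were RLE scaling, library totals with and without erythroid genes, DESeq2 1.42.0, limma-voom 3.58.1, other filters, a replicate block, GC correction and each library left out. No library duplicated another of its group (chi-square per gene 4.28 to 13.4). The genes, lists and named-gene rule (all 10 genes, and called or smallest-p genes of each list) were chosen with earlier results of these data known.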

Additional observations from a re-analysis of the deposited data

How the results depend on the processing

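The direction of Cyp26a1, Cyp26b1, Cyp26c1, Rara, Rarb and Crabp2 was the same under all alternatives in which they were tested, Cyp26c1 not having passed the stricter filter. The log2 fold changes obtained without single libraries ran from -0.15 to 1.05 for Aldh1a2, -0.95 to -0.11 for Cyp26a1, 0.07 to 0.85 for Cyp26b1, 0.08 to 1.14 for Cyp26c1, 0.22 to 0.50 for Rara, -0.48 to -0.24 for Rarb, -0.25 to 0.10 for Rarg, -0.11 to 0.14 for Crabp1 and -0.36 to -0.04 for Crabp2. Crabp1, at a fold near 1, turned negative with RLE scaling (-0.0017), library totals only (-0.073), DESeq2 (-0.0080) and GC correction (-0.18). Whether the replicate numbers pair the samples could not be decided (correlation of deviations 0.08 for number 1 and -0.0042 for number 2). With 2 dCKO libraries, the deviations of replicate 2 are those of replicate 1 with the sign reversed, so such correlations are not independent. In the replicate block, control replicate 3 stood alone under its number and so added nothing to the estimated fold changes. That fit was thus close to the one without control replicate 3, with Rarg at 0.11 against 0.10 and Rara at 0.50 in both. With the replicate block Rara was called (edgeR adjusted p = 0.0100), so 1 of the 10 genes was called. The block also gave 2 receptor partners called higher, 7 retinoic acid responsive genes higher and 1 lower, and 1200 higher and 921 lower genes in all, against 636 and 180 without it. With libraries left out, 0 to 1 of the 10 genes, 0 to 1 other retinoid pathway genes, 0 to 1 receptor partners and 3 to 7 responsive genes were called higher, 0 to 2 responsive genes lower, and 403 to 950 and 39 to 687 of all genes higher and lower. Responsive genes called lower, 0 in the main test, were 1 with library totals only, 1 with DESeq2, 2 with no filter on low counts and 1 with GC correction. Lower genes in all were 472 with library totals only and 305 with no filter. Ppard passed with the block (0.42). Apart from the place of control replicate 3 in the block, the cause of these changes was not tested. Aldh1a3 could be tested only without the filter (edgeR adjusted p = 0.565). Its 13 counts in all, and the 8 to 39 counts of Aldh1a2, limit what these libraries can show.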

Other observations

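Of the 10 genes, 7 had their highest control value in control replicate 3 and 0 in control replicate 1, while 37.7% of all tested genes were highest in control replicate 3 and 32.2% in control replicate 1. The difference between the log2 fold changes of Rara and Rarg was 0.46 in the main test and 0.44 after GC correction, and 0.39 without control replicate 3. Over all alternatives it ran from 0.39 to 0.51.

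Among the retinoic acid responsive genes that were not called, 4 others had an unadjusted p below 0.05, and they are named after their values were seen. Together with the called genes, 8 of the 20 had such an edgeR p, against 21.5% of all tested genes. Tbx1, a T-box factor active in pharyngeal mesoderm, measured 19.8 and 15.3 CPM in dCKO libraries against 11.8, 6.48 and 13.4 CPM in control libraries (edgeR adjusted p = 0.0945). Nr2f2, an orphan nuclear receptor gene, measured 119.8 and 115.8 CPM in dCKO against 153.1, 136.7 and 201.1 CPM in control libraries (edgeR adjusted p = 0.0627). Its relative Nr2f1 measured 156.3 and 145.0 CPM in dCKO against 165.9, 180.6 and 199.3 CPM in control libraries (edgeR adjusted p = 0.210), and it was called lower after GC correction (log2 fold change -0.52, SE 0.10, edgeR adjusted p = 0.00328). Gbx2, a homeobox gene, measured 8.68 and 10.8 CPM in dCKO against 16.8, 8.92 and 24.3 CPM in control libraries (edgeR adjusted p = 0.139).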
